A study of Homo sapiens with 6 samples.

Results

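MDM2, MDM4, TIGAR, SESN1, ZMAT3, BTG2, GADD45A, PLK2 and PLK3 are genes around the tumour suppressor p53: its main inhibitors and genes that p53 and other stress pathways switch on. These 9 genes were picked by name from the 20442 genes of the deposited read count table, and each of the 9 had a row. T24, an established line of human bladder tumour epithelial cells, was treated for 24 h with si-KNSTRN, a small interfering RNA (siRNA) against the spindle gene KNSTRN, or with the control siRNA si-NC, and 3 biological replicates per group were sequenced. A single line and transient siRNAs were used, and neither the labels nor the table give the siRNA sequences. No label names separate cultures, so that p-values measure the spread between these libraries, which may be technical. TIGAR, GADD45A and PLK3 rose in si-KNSTRN cells, PLK2 fell, MDM4 fell slightly, and MDM2, SESN1, ZMAT3 and BTG2 did not pass the test.

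As background, p53 is a transcription factor that is kept scarce in resting cells, because MDM2 marks it for degradation and MDM4 blocks its activity. Stress signals release it, and its targets then stop the cell cycle, repair DNA, adjust metabolism or start cell death, while MDM2, itself a target, closes a feedback loop. Several genes of this set, GADD45A, BTG2, PLK2 and PLK3 among them, are also known to respond to stress and growth factor signals without p53.

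The libraries held 16386799 to 20596074 counted reads, and a gene without a read could still lie at up to 3 reads, or 0.146 to 0.183 CPM, from counting error alone. CPM is the read count relative to the size of the library. KNSTRN itself went from 38.3, 41.2 and 41.9 CPM in si-NC libraries 1 to 3 to 13.6, 13.6 and 12.2 CPM in si-KNSTRN libraries 1 to 3. Of 14 epithelial markers, KRT7, KRT8 and KRT18 were abundant (1013, 1080 and 843 CPM on average in si-NC), while 7 stayed below 1 CPM in every library and CDH1, KRT5 and UPK3A had no read at all. The 5 mesenchymal markers summed to 22200 to 24100 CPM in si-NC and 17400 to 18700 CPM in si-KNSTRN. Most of this sum was FN1 and VIM, which fell. Of the 5, 3 were called lower and 2 higher, ZEB1 (41.0 to 54.2 CPM on average) and SPARC (228 to 250 CPM). The fibroblast list summed to 25.4 to 26.8 and 14.8 to 16.6 CPM, with COL1A2 at 0 and its 3 tested genes all lower. The epithelial list summed to 2870 to 3040 CPM in si-NC and 3100 to 3260 CPM in si-KNSTRN, with 1 of its 9 tested genes called higher and 2 lower. The endothelial list summed to 0.549 to 0.837 and 1.08 to 1.72 CPM. The leukocyte list, nearly all of it CD68, 92.6% of whose 50-base windows occur in another gene, summed to 30.8 to 36.2 and 45.7 to 48.3 CPM, with PTPRC, which defines leukocytes, at 0 to 2 reads per library. Their part in the results was not tested. In RNA from whole cultures, fewer cells that express a gene and less RNA per cell cannot be told apart.

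All 9 genes passed the low-count filter. At an adjusted p under 0.05 by edgeR's quasi-likelihood test, 3 of the 9 were called higher and 2 lower, against 31.2% higher and 31.3% lower among the 12650 genes tested, so that the share of called members (55.6%) was near that of all genes (62.5%). The CPM ranges of the groups did not overlap for 5 of the 9, against 67.3% of all genes tested. The median log2 fold change of the 9 genes was 0.13, beside -0.01 for all genes tested.

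**Figure D1:**
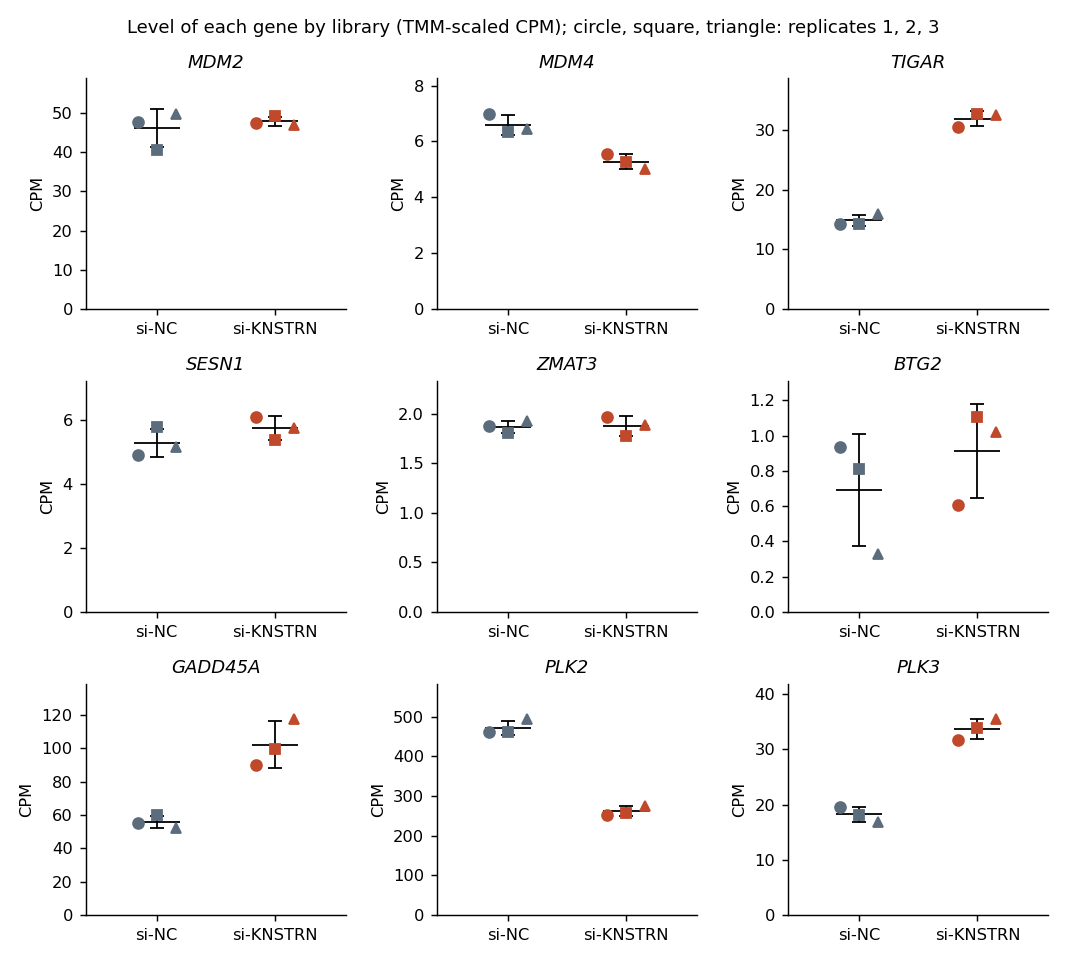
TMM-scaled CPM (y axis, linear, from 0) of each of the 9 genes in the 3 si-NC and 3 si-KNSTRN libraries, with the mean and SD of each group as bar and whiskers. The groups are apart for TIGAR, GADD45A, PLK2, PLK3 and MDM4 and overlap for MDM2, SESN1, ZMAT3 and BTG2.

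The p53 inhibitors came first. MDM2 (chr12:68808172-68850686, GRCh38), the ubiquitin ligase of p53, stood at 47.8, 40.6 and 49.8 CPM in si-NC libraries 1 to 3 and at 47.4, 49.2 and 47.0 CPM in si-KNSTRN libraries 1 to 3. The si-KNSTRN values lay inside the si-NC range, and si-NC library 2 was the lowest of the 6. The log2 fold change was 0.05 (SE 0.07, adjusted p = 0.53), with a 95% interval from -0.09 to 0.20. Its sign turned without si-NC library 2 (-0.03, adjusted p = 0.71). MDM2 shares 3′ genomic sequence with the gene of carboxypeptidase M, which rose from 31 to 41 reads in si-NC to 88 to 106 reads in si-KNSTRN libraries, against 653 to 970 reads of MDM2. The sources used here do not say how reads in that overlap were assigned.

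MDM4 (chr1:204516406-204558120), the MDM2 relative that binds p53 without being an active ligase of its own, had 6.99, 6.34 and 6.43 CPM in si-NC libraries 1 to 3. In si-KNSTRN libraries it had 5.56, 5.26 and 5.01 CPM, all below the si-NC values. The fall from 6.59 ± 0.354 to 5.28 ± 0.278 CPM (SD, n = 3 each) gave -0.32 on the log2 scale (SE 0.12, adjusted p = 0.023). This call was lost with DESeq2 (-0.32, adjusted p = 0.12) and without si-NC library 1 (-0.28, adjusted p = 0.097), si-KNSTRN library 2 (-0.32, adjusted p = 0.057) or si-KNSTRN library 3 (-0.29, adjusted p = 0.066), and its adjusted p ranged from 0.012 to 0.12 over all alternatives.

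MDM4 and ZMAT3 were the members whose reference 3′ untranslated regions (UTRs) hold the word TGAGTA, a sequence that an earlier look at these counts had tied to falling genes. It was searched on the sense strand of 1 GENCODE release 29 transcript per gene. Among 11949 tested genes with such a 3′ UTR, 41.0% of the 3264 genes with TGAGTA were called lower and 22.3% higher, against 27.9% and 34.9% of the 8685 genes without it. These shares come from the same counts that first pointed to the word, so that they are no independent support. The groups were also not matched for 3′ UTR length. Near the 312 bases of PLK3, 4.3% of tested genes hold the word, far fewer than near the length of MDM4. MDM4 holds 6 copies in a 3′ UTR of 8438 bases, and 87.7% of tested genes with a 3′ UTR within 25% of that length hold at least 1. ZMAT3 holds 3 copies in 7794 bases, where 85.4% of genes of like length hold it. A pair of MDM4 sites and 1 ZMAT3 site are shown, because MDM4 was called lower and ZMAT3, with the same word, was not. The difference between the changes of MDM4 and ZMAT3 was not tested, and the 95% interval of ZMAT3 includes the MDM4 value. Capitals mark CTGAGTA or TGAGTA and, where present, an A that follows it. All lie in 3′ UTRs and read 5′ to 3′ on the transcript, with GRCh38 positions of the capitals.
MDM4 site at chr1:204550025-204550032, plus strand: ttgtagaaatCTGAGTAAccacccaaaa
MDM4 site at chr1:204554606-204554612, plus strand: atcagacttgTGAGTAAacaagttgaag
ZMAT3 site at chr3:179018031-179018037, minus strand: cttttggtacCTGAGTAcctttctgggg
TIGAR, SESN1, BTG2, GADD45A, PLK2 and PLK3 hold no TGAGTA in the transcripts searched. PLK2, the clearest fall of the set, has a 3′ UTR of 601 bases, and 10.2% of tested genes of like length hold the word. For MDM2 the answer depends on the transcript: the reference one (3′ UTR of 958 bases) has none, and the longest (10837 bases) has 2. The part of these sites in the values was not tested. The AU-rich word ATTTATTTA occurs in none of the 9 reference 3′ UTRs and in 7.1% of those of all tested genes.

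Counted within a library, MDM2 gave 6.83, 6.40 and 7.75 reads per MDM4 read in si-NC libraries 1 to 3 and 8.53, 9.34 and 9.39 in si-KNSTRN libraries 1 to 3. The ratio was higher in every si-KNSTRN library than in every si-NC library, whereas the MDM2 level alone did not separate the groups. This ratio and that of PLK2 to PLK3 were chosen after the values had been seen and are given as descriptions. They use raw reads without a length correction, so that only their change between groups can be read.

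**Figure D2:**
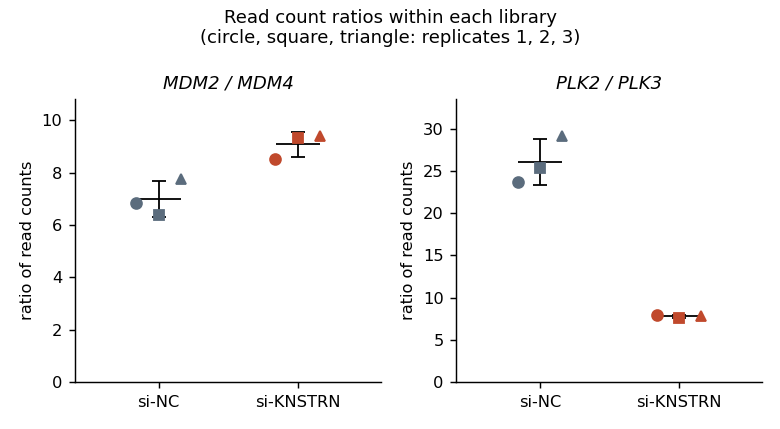
Ratio of raw read counts of 2 genes within each library (y axis, linear, from 0), for 3 si-NC and 3 si-KNSTRN libraries with mean and SD. MDM2/MDM4 is higher in every si-KNSTRN library, and PLK2/PLK3 drops from 23.7 to 29.1 to 7.61 to 7.93.

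Promoter windows, 250 bases before to 50 after each RefSeq start site (GRCh38.p14), were found for all of the 9 genes but GADD45A, 14 windows in all. They were searched on both strands for a p53 site (a pair of adjacent p53 decamers with exact cores and at most 3 of the 12 flanking positions off), the AP-1 words TGACTCA and TGAGTCA, the CRE word TGACGTCA and the CArG box of serum response factor. A p53 site occurred in 0.43% of all 35116 windows, an AP-1 word in 4.95%, a CRE word in 1.85% and a CArG box in 1.29%. Matches are descriptions of the letters only. The search misses p53 sites with an inexact core, with bases between the decamers or outside these windows. A gene without a match may therefore still have a p53 site. Among the members, SESN1 had a p53 site at a start site on the minus strand of chromosome 6. This match had 3 flanking positions off, the most allowed. MDM2 had an AP-1 word, in a pair of overlapping windows of its plus strand on chromosome 12. Both matches are shown because none of the other windows, which do not cover GADD45A, held any of these motifs as defined here. The matched bases are in capitals, 5′ to 3′ in the direction of the gene.
SESN1 p53 site, chr6:109009018-109009037, bases -49 to -30 from the start: cgtctGGACAAGTCTCCACAAGTCAgaaat
MDM2 AP-1 word, chr12:68808899-68808905, bases -118 to -112 from the first of these starts: agtgggcaggtTGACTCAgcttttcctctt
Neither of these genes was called changed.

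TIGAR and SESN1 act on metabolism and oxidative stress. TIGAR (chr12:4321213-4360028) encodes a phosphatase that lowers fructose-2,6-bisphosphate, which slows glycolysis and favours NADPH supply. It had 14.2, 14.3 and 15.99 CPM in si-NC libraries 1 to 3 and 30.5, 32.8 and 32.5 CPM in si-KNSTRN libraries 1 to 3, so that the lowest si-KNSTRN library was well above the highest si-NC library. The mean went from 14.8 ± 0.992 to 31.9 ± 1.20 CPM (SD, n = 3 each), a 2.15-fold rise (log2 fold change 1.10, SE 0.07, adjusted p = 1.7e-09), and 95% of tested genes had a smaller absolute change. Of its reference transcript, 61.6% of 50-base windows also occur in other GENCODE transcripts, mostly a locus that overlaps it and is not in the count table. How reads from such windows were assigned is not known, so that the count of TIGAR is uncertain too.

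The PFKFB genes encode the enzymes that make and remove the same sugar phosphate, and they did not move together. PFKFB2 went from 2.81 ± 0.516 to 5.17 ± 0.186 CPM (log2 fold change 0.87, SE 0.15). PFKFB3, the isoform linked to rapid glycolysis, fell by 0.57 (SE 0.05) on the log2 scale, and PFKFB4, from 66.2 ± 4.06 to 20.4 ± 2.04 CPM, by 1.69 (SE 0.07). PFKFB1 was too low to be tested, with 0 to 5 reads per library.

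SESN1 (chr6:108984309-109094846), a sestrin that senses leucine and restrains mTORC1 through the GATOR2 complex, had 4.93, 5.79 and 5.17 CPM in si-NC libraries 1 to 3 and 6.12, 5.38 and 5.76 CPM in si-KNSTRN libraries 1 to 3. The groups overlapped, and the log2 fold change of 0.13 (SE 0.12, adjusted p = 0.38) had a 95% interval from -0.13 to 0.38. It overlaps ARMC2 on the genome, which was not called either (log2 fold change -0.28, adjusted p = 0.18). SESN2, the family member also induced by ATF4, rose from 5.80 ± 0.75 to 9.41 ± 0.0906 CPM (0.69 on the log2 scale, SE 0.11, adjusted p = 4.6e-05). The difference between the changes of SESN1 and SESN2 was not tested. SESN3 had 5 to 10 reads per library and was not tested.

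The GATOR list, the sestrins' partners at the lysosome, had 13 genes tested, 3 higher and 6 lower (69.2% called, against 62.5% of all genes), with a median log2 fold change of -0.22. The count of CASTOR1, called lower, is uncertain, because 76.9% of its 50-base windows occur in another gene. SEH1L and WDR59, subunits of GATOR2, fell by 0.83 (SE 0.07) and 0.31 (SE 0.05), while SEC13, another GATOR2 subunit, and NPRL3, of GATOR1, rose by 0.30 (SE 0.05) and 0.63 (SE 0.07) on the log2 scale.

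ZMAT3 and BTG2 act on RNA, ZMAT3 as a zinc finger protein that steers splicing and mRNA stability, and BTG2 as an antiproliferative protein that recruits mRNA deadenylases. ZMAT3 (chr3:179017223-179072513) was counted 38, 29 and 35 times in si-NC libraries 1 to 3 and 39, 32 and 35 times in si-KNSTRN libraries 1 to 3, and the groups overlapped. The levels were 1.87 ± 0.0598 and 1.88 ± 0.0996 CPM (SD, n = 3 each). The log2 fold change of 0.01 (SE 0.18, adjusted p = 0.97) had a 95% interval from -0.38 to 0.40, so that a change within it was not detectable at this depth, and its sign turned without si-NC library 2 (-0.01) or si-KNSTRN library 1 (-0.03). With upper-quartile scaling ZMAT3 stood at -0.03 and the median of all genes at -0.05. ZMAT2 and ZMAT5 were not called (0.05 and 0.09), and ZMAT1 and ZMAT4 had no read in any library.

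BTG2 (chr1:203305519-203309602) was the least read member, counted 19, 13 and 6 times in si-NC libraries 1 to 3 and 12, 20 and 19 times in si-KNSTRN libraries 1 to 3. The groups overlapped and si-NC library 3 stood lowest. The log2 fold change of 0.38 (SE 0.36, adjusted p = 0.37) had a 95% interval from -0.38 to 1.14, and it ran from 0.04 without si-NC library 3 to 0.70 without si-NC library 1. At this depth neither a rise of 2-fold nor a small fall can be told from no change. Its relatives were read far more often: BTG1 fell from 66.1 ± 3.03 to 33.6 ± 4.27 CPM (log2 fold change -0.98, SE 0.08), BTG3 rose from 41.4 ± 1.35 to 63.6 ± 3.98 CPM (0.62, SE 0.06), and TOB1 and TOB2 were not called (0.13 and -0.13, adjusted p = 0.076 and 0.077). BTG4 had at most 1 read per library.

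GADD45A (chr1:67685201-67688334) encodes a small stress protein that binds PCNA and the cyclin B1 and CDK1 complex and activates the kinase MAP3K4 above p38 and JNK. Its levels were 55.3, 59.8 and 52.4 CPM in si-NC libraries 1 to 3 and 89.8, 99.6 and 117 CPM in si-KNSTRN libraries 1 to 3. Every si-KNSTRN library was above every si-NC library, with si-KNSTRN library 3 the highest. The mean rose from 55.8 ± 3.74 to 102 ± 13.9 CPM (SD, n = 3 each), a 1.83-fold change (log2 fold change 0.87, SE 0.08, adjusted p = 6.5e-08). GADD45B fell, from 23.9 ± 2.88 to 17.4 ± 1.38 CPM (-0.46 on the log2 scale, SE 0.09, adjusted p = 2.7e-04), and GADD45G had no read in any library.

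PLK2 and PLK3 are polo-like kinases of the stress response, unlike PLK1, which drives mitosis. PLK2 (chr5:58453982-58460086), which acts in G1 and in centriole duplication, was the most abundant member in CPM, with 462, 461 and 493 CPM in si-NC libraries 1 to 3 and 251, 258 and 276 CPM in si-KNSTRN libraries 1 to 3. The si-KNSTRN values were all far below the si-NC values. The mean fell from 472 ± 18.4 to 262 ± 12.6 CPM (SD, n = 3 each), to 0.555 of the si-NC level (log2 fold change -0.85, SE 0.05, adjusted p = 4.8e-10).

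PLK3 (chr1:44800377-44805990), a kinase activated by DNA damage and oxidative stress, moved the opposite way. It had 19.5, 18.2 and 16.9 CPM in si-NC libraries 1 to 3 and 31.7, 33.9 and 35.4 CPM in si-KNSTRN libraries 1 to 3, again with no overlap. The mean rose from 18.2 ± 1.29 to 33.7 ± 1.87 CPM, a 1.85-fold change (log2 fold change 0.89, SE 0.07, adjusted p = 2.7e-08). PLK3 overlaps DYNLT4 on the genome, which was counted but did not pass the low-count filter. How reads in that overlap were assigned is not known. PLK2 gave 23.7, 25.4 and 29.1 reads per PLK3 read in si-NC libraries and 7.93, 7.61 and 7.78 in si-KNSTRN libraries. PLK1 rose by 0.29 on the log2 scale (SE 0.05, adjusted p = 3.3e-05), and PLK4, the kinase of centriole duplication, fell by 0.23 (SE 0.05, adjusted p = 0.0011). PLK5 had 1 to 7 reads per library and was not tested. Of the 13 tested relatives of the 9 genes, 4 were higher and 5 lower, a called share (69.2%) near that of all genes (62.5%).

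**Figure D3:**
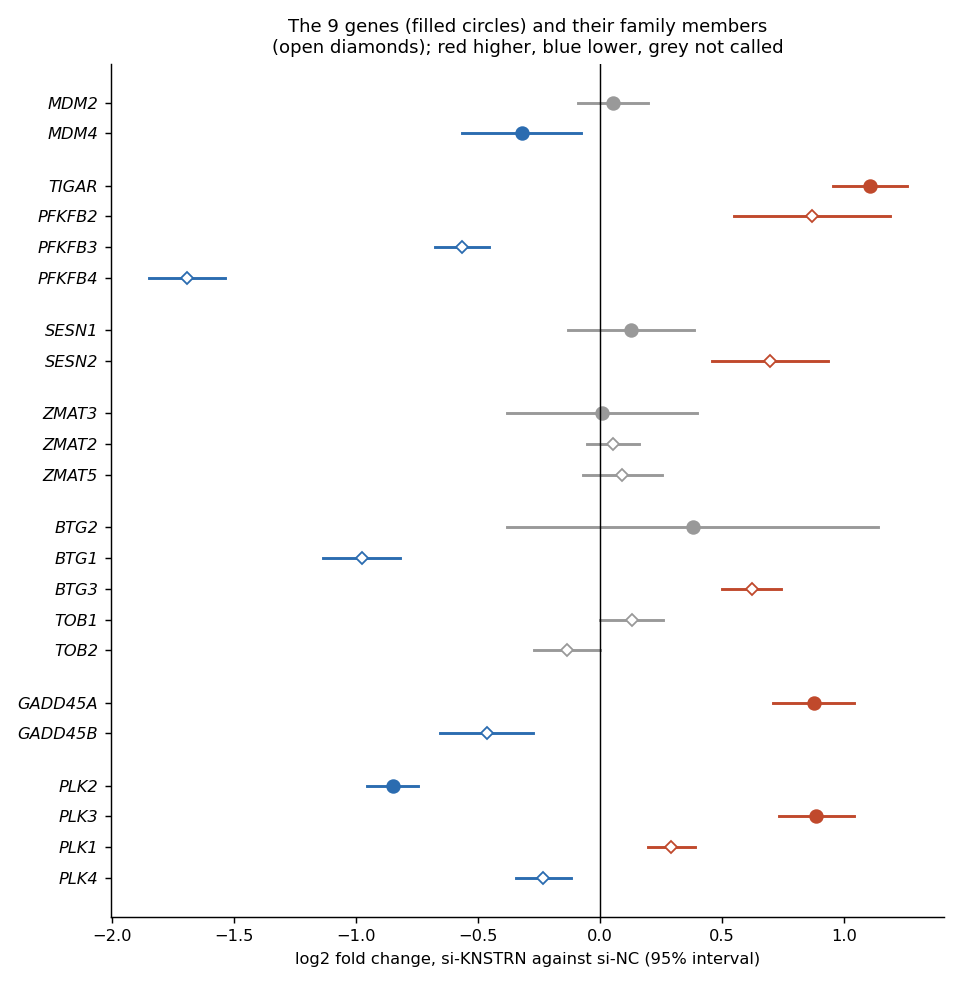
Log2 fold change with 95% interval (x axis) of the 9 genes (filled circles) and the tested relatives (open diamonds), grouped by family. Within the GADD45, BTG, PFKFB and PLK families, genes called higher stand beside genes called lower.

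Levels of different genes were compared as CPM per kilobase of the reference transcript. In si-NC the order was PLK2 (159 ± 6.22), GADD45A (37.3 ± 2.50), MDM2 (18.3 ± 1.92), PLK3 (7.30 ± 0.520), TIGAR (5.34 ± 0.356), SESN1 (1.51 ± 0.126), MDM4 (0.654 ± 0.0351), BTG2 (0.255 ± 0.118) and ZMAT3 (0.198 ± 0.00635), as mean ± SD over 3 libraries. BTG2 and ZMAT3 overlapped in si-NC and no other neighbours did. The order was kept in si-KNSTRN cells, where PLK2 stood at 88.4 ± 4.26 and GADD45A at 68.3 ± 9.32 CPM per kilobase. The place of MDM2 depends on the transcript, because its longest one has 12633 bases against 2523 in the reference one, and the level per kilobase in si-NC is then 3.65 ± 0.383, below that of TIGAR.

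The other known p53 targets also moved both ways. Of 75 tested genes from 4 lists by role, 32 were higher and 24 lower, so that 74.7% were called, against 62.5% of all genes tested, with a median log2 fold change of 0.10. These lists, like the 9 genes, were drawn up with earlier results of these data known. Of these targets, PTP4A1, TNFRSF10C, ALDH4A1 and INKA2 share 39.7% to 96.0% of their 50-base windows with other genes, and their counts are uncertain.

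Cell cycle arrest targets had 8 genes tested, 4 higher and 1 lower (62.5% called, as of all genes tested, median log2 fold change 0.16). CDKN1A, which encodes the CDK inhibitor p21, rose most, with 207 to 310 reads per si-NC library and 1238 to 1562 per si-KNSTRN library (2.36 on the log2 scale, SE 0.10). PRDM1 was called higher from few reads (0 to 6 in si-NC and 11 to 19 in si-KNSTRN libraries), and the repressor gene E2F7 rose by 0.42 (SE 0.05). CCNG1, the cyclin G1 gene and a standard p53 target, fell from 173 ± 2.83 to 102 ± 6.30 CPM (log2 fold change -0.76, SE 0.05).

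Cell death targets had 18 genes tested, 10 higher and 6 lower (88.9% called, against 62.5% of all genes, median 0.16). This list, too, was drawn up with earlier results of these data known. AEN, a nuclease gene, rose by 1.06 (SE 0.07) on the log2 scale, AIFM2, whose protein protects from ferroptosis, by 0.97 (SE 0.07) and the iron reductase gene STEAP3 by 0.81 (SE 0.07). FAS, a death receptor gene, fell from 80.3 ± 2.68 to 26.8 ± 2.15 CPM.

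Targets of DNA repair and metabolism had 21 genes tested, 5 higher and 8 lower (61.9% called, against 62.5% of all genes, median -0.01). The nucleotide excision repair gene DDB2, the translesion polymerase gene POLH and APOBEC3C fell by 0.44 (SE 0.08), 0.53 (SE 0.07) and 0.60 (SE 0.06), and SESN2, described above, was the largest rise. Targets of signalling and other roles had 28 genes tested, 13 higher and 9 lower (78.6% called, against 62.5% of all genes, median 0.24). The stress cytokine gene GDF15 rose from 37 to 39 reads per si-NC library to 441 to 522 per si-KNSTRN library, and KITLG, the gene of stem cell factor, by 1.61 (SE 0.13) on the log2 scale. THBS1, which encodes a thrombospondin, and EPS8L2 fell by 1.10 (SE 0.07) and 0.92 (SE 0.05).

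Of 27 tested genes of the p53 family and its regulators, 5 were higher and 12 lower (median log2 fold change -0.07), and the called share of 63% was that of all genes (62.5%) within a percentage point. TTC5, a p53 cofactor gene, fell by 0.76 (SE 0.09) and the DNA damage kinase gene ATM by 0.46 (SE 0.06). RPL23, whose ribosomal protein can bind MDM2, fell by 0.47 (SE 0.05). TP73 was not called (0.10, adjusted p = 0.31), and TP63 had 1 read in all.

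**Figure D4:**
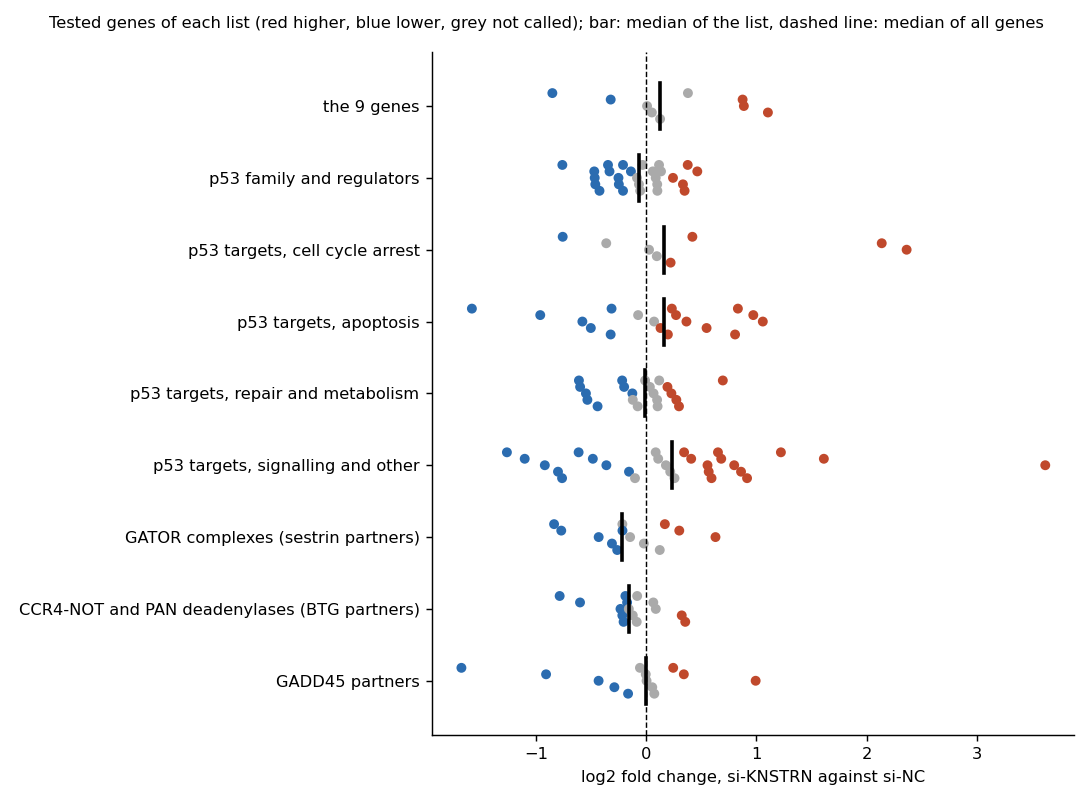
Log2 fold change (x axis) of each tested gene in the 9-gene set and 8 lists (y axis), coloured by call, with the list median as a bar and the median of all genes as a dashed line. Each list spreads to both sides of 0, and list medians lie between -0.22 and 0.24. The deadenylase list also holds PARN and PABPC1.

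The gene whose log2 CPM over the 6 libraries was most like that of each member is given as a description without a test, since any gene that differs between the groups correlates with any other such gene. For TIGAR it was STRAP (Pearson r = 0.9998), for PLK3 MARCHF4 (0.9999), for GADD45A EPHB2 (0.9994), for PLK2 PHF13 (0.9992) and for MDM4 SVIL (0.9980). For the members that were not called, whose pattern is the spread between replicates, they were VMA21 for MDM2 (0.9888), CREB3 for SESN1 (0.9809), SUFU for BTG2 (0.9915) and OPN1SW for ZMAT3 (0.9485). A like pattern did not mean a like size, as STRAP changed by 0.44 and TIGAR by 1.10 on the log2 scale.

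**Figure D5:**
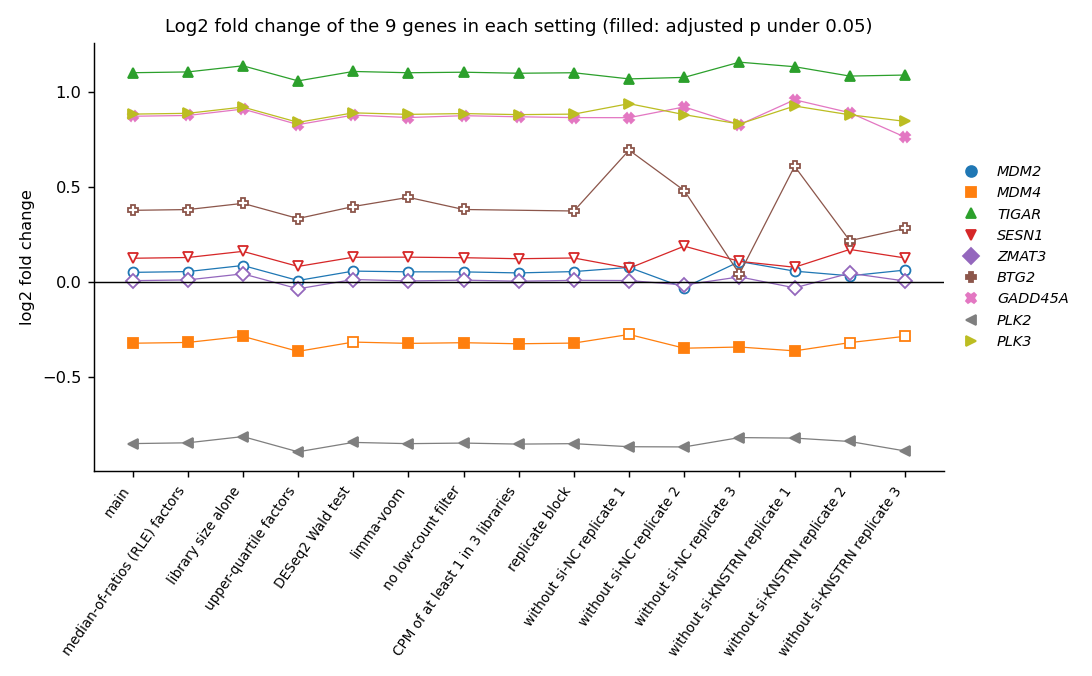
Log2 fold change (y axis) of each of the 9 genes under the reported setting and 14 alternatives (x axis), filled where the adjusted p was under 0.05. TIGAR, GADD45A, PLK3 and PLK2 are filled throughout, MDM4 is open in 4 alternatives, and BTG2 swings between 0.04 and 0.70 without being called.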

How the data were processed

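RNA-seq of T24 cells was analysed from the authors' deposited raw read counts per gene (whole numbers, no normalization, 6 libraries). The submitters' processing notes name GRCh38, featureCounts, HISAT2 2.0.1, fastp 0.20.0 and FastQC 0.11.5. The annotation release, strand setting and treatment of multi-mapped reads were not given in the sources used here. Groups and replicate numbers came from the sample titles.

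Counts of 20442 genes were fitted in edgeR 4.0.16 (R 4.3.3) with filterByExpr (minimum count 10, 12650 genes kept), TMM factors and the two-sided quasi-likelihood test, with Benjamini-Hochberg adjustment over all genes tested and a threshold of 0.05. The test was tried on simulated counts first. Levels are TMM-scaled CPM. Replicate pairs differed by more than sampling noise (chi-square per degree of freedom 2.21 to 10.7), so that none was merged. That the replicates are biological is the submitters' description.

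Named genes were the 9 members, KNSTRN, all tested relatives, from each list the 4 genes of lowest p, and for each member its most alike gene. Some genes and sites that meet this rule are not reported here. Members and lists were chosen with earlier results of these data known. GENCODE release 29 gave 1 transcript per gene, by APPRIS rank and then length. Genes without strand information can share reads with overlapping genes. Alternatives used limma 3.58.1 and DESeq2 1.42.0, and tables and figures Python 3.11.15.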

Additional observations from a re-analysis of the deposited data

How the results depend on the processing

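TIGAR, GADD45A, PLK3 and PLK2 kept their direction and call in all 14 alternatives: other scaling factors, DESeq2, limma-voom, other low-count filters, the replicate number as a block, and each library left out. MDM4 lost its call with DESeq2 (log2 fold change -0.315) and without 3 of the 6 libraries, its value running from -0.362 to -0.275 as each was left out. The number of the 9 genes called lower was therefore 1 with DESeq2, 1 at an adjusted p under 0.01 and 1 to 2 with a library left out. MDM2, SESN1, ZMAT3 and BTG2 were called in no alternative. BTG2 gave no value when 3 libraries had to reach a CPM of 1. Among repair and metabolism targets, 2 were higher at an adjusted p under 0.01, and 5 were lower both there and with DESeq2; the cause was not tested. All other list counts stayed within 1.5 times.

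The replicate numbers did not pair the libraries (correlation of same-numbered deviations -0.067, 0.101 and -0.001). With the replicate block, 3 of the 9 genes were higher and 2 lower, and 3831 and 3857 of all genes. With the longest transcript as length, an alternative added after the data had been seen, the level of MDM2 per kilobase was 3.65 and that of TIGAR 4.09 in si-NC. Depth limits BTG2 and ZMAT3 most.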

Other observations

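Genes linked to BTG2 and GADD45A were also measured. A list of 15 tested genes held subunits of the CCR4-NOT and PAN complexes, which shorten mRNA tails, with PARN, a separate deadenylase gene, and PABPC1, which encodes the main cytoplasmic poly(A) binding protein and is no deadenylase. Of the 15, 2 were higher and 7 lower, PARN and PABPC1 among the latter, so that 60% were called against 62.5% of all genes, with a median log2 fold change of -0.16 beside -0.01 for all genes tested. The deadenylase gene CNOT8 fell from 78.3 ± 3.95 to 45.5 ± 1.66 CPM (SD, n = 3 each; log2 fold change -0.78, SE 0.05), and PABPC1 fell by 0.60 (SE 0.05). The deadenylase gene CNOT6 and the scaffold gene CNOT9 rose by 0.35 (SE 0.06) and 0.32 (SE 0.05) on the log2 scale.

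A list for GADD45A held its partners and also kinases of the p38 and JNK pathway below MAP3K4. Of its 13 tested genes, 3 were higher and 5 lower (median log2 fold change -0.004), and the called share of 61.5% was near that of all genes (62.5%). ERCC5, called lower, shares 69.8% of its 50-base windows with another gene, and its count is uncertain. The closely related p38 kinase kinase genes moved apart: MAP2K3 rose from 44.8 ± 3.22 to 89.0 ± 6.70 CPM (log2 fold change 0.99, SE 0.06), and MAP2K6 fell from 79 to 112 reads per si-NC library to 21 to 34 reads per si-KNSTRN library (log2 fold change -1.67, SE 0.18). PCNA, the sliding clamp gene that GADD45A protein binds, fell by 0.43 (SE 0.05), and CCNB1, the cyclin B1 gene, rose by 0.34 (SE 0.05), both on the log2 scale.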
